A study of Mus musculus with 39 samples.

Results

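The immunoglobulin segments were followed on 39 mouse expression arrays that compared 4 normal stages of B-cell development with MLL-AF4 leukemic lymphoblasts. A probe set, the group of oligonucleotides read out as 1 value on the array, was taken as a member when any of its annotated symbols was a heavy, kappa or lambda chain variable, joining or constant gene of the series Ighv, Ighd, Ighj, Ighg, Igha, Ighe, Igkv, Igkj, Igkc, Iglv or Iglc, or was Ighm. This gave 50 probe sets of the 22626 tested. They carried 26 different symbols, among them 17 kappa variable segments, 2 heavy variable segments (Ighv14-2 and Ighv1-72) and 1 lambda variable segment (Iglv1). The RefSeq annotation of the mouse lists 162 kappa and 183 heavy variable segments, so most segments had no probe set of their own.

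An immunoglobulin gene is assembled in each developing B cell, which joins 1 variable, sometimes 1 diversity, and 1 joining segment in front of a constant region. The heavy chain is joined at the pro-B stage and is first tested with the surrogate light chain of Vpreb1 and Igll1, and the kappa or lambda chain is joined at the pre-B stage, so that IgM reaches the surface of the immature B cell. Constant segments and unjoined variable segments are also transcribed without a productive join, and a clone of cells that descends from 1 joined cell keeps the same join.

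All cells were sorted from adult mouse bone marrow by surface proteins. Normal pro-B cells (B220+ CD43+ IgM- IgD-) were on 6 arrays, pre-B cells (B220+ CD43- IgM- IgD-) on 8, immature B cells (B220+ CD43- IgM+ IgD-) on 6 and mature B cells (IgM+ IgD+) on 3. Leukemic cells of the pre-B gate were on 16 arrays, of which 5 (A992, A1322, A1507, 270 and A46) came from mice given pIpC, a synthetic double-stranded RNA. Array 116 was described as pre-B cells of an Mll-AF4stop knock-in mouse, with no mention of leukemia, and stayed in the leukemic group because its cell type label put it there. The labels of the other leukemic arrays give no strain, allele, or promoter that drives the fusion, and those of the normal arrays do not say whether they came from separate animals. The p-values therefore measure the spread between these samples, which may be technical.

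The arrays fell into 2 runs of accession numbers, 22 arrays in the first and 17 in the second, and no label says that these were batches. Some normal arrays of 1 group resembled each other across the runs. Deviations from the group and run mean were correlated over probe sets that are not members. The correlations were above 0.3 in 4 of 9 pro-B, 5 of 16 pre-B and 3 of 9 immature B pairs, at up to 0.81. The lowest were -0.84 in pro-B, -0.68 in pre-B and -0.62 in immature B. Deviations from a run mean sum to 0 within the run, so negative pairs force some positive ones. The labels do not say that arrays with a high correlation share RNA. Results are therefore also given with alike arrays averaged, which leaves 2 pro-B, 3 pre-B and 3 immature B values, an alternative chosen after seeing the data. Arrays were joined in chains, so an averaged set can hold pairs below 0.3, such as pre-B arrays 6 and 2 at 0.105. The 6 measured B-lineage marker genes had a mean log2 level of 9.61 to 10.10 on the pre-B arrays and of 7.13 to 9.82 on the leukemic arrays. The lowest leukemic value was that of array 122, where Ebf1 (a factor that B-lineage cells need) read 7.27 and Cd79a (a signalling subunit of the B-cell receptor) 6.996, against lowest values of 10.95 and 10.66 on the other 15 leukemic arrays. Levels below are log2 intensities, differences are differences of group means of those levels, and a member was called when its limma p, adjusted by Benjamini-Hochberg over all 22626 probe sets, was under 0.05.

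The light chains are described first. On the kappa constant probe set 1452417_x_at, which is annotated to Igkc together with Igkj1 and 3 variable segments, the pro-B arrays read 12.20 at the lowest, 12.52 at the median and 12.74 at the highest, and the pre-B arrays 11.90, 12.22 and 12.55. The immature B arrays read 13.16, 13.22 and 13.35, and the mature B arrays 12.99, 13.02 and 13.02. Every immature and mature B array was above every pro-B and pre-B array, while the pro-B and pre-B ranges overlapped.

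**Figure D1:**
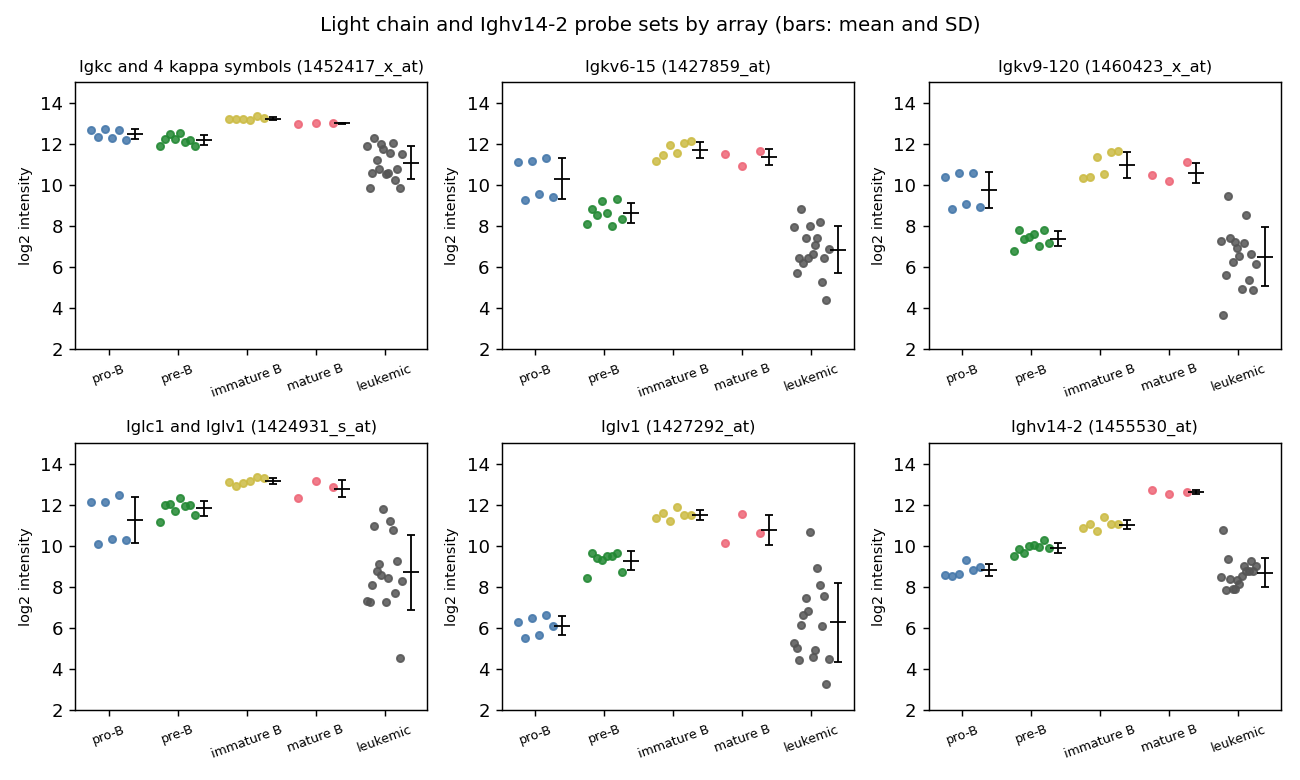
Log2 intensity of 6 light chain and heavy variable probe sets on every array, by group. Each point is 1 array, and the bars give the group mean ± SD. Immature B arrays stand above pre-B arrays in all 6 panels, and leukemic arrays have the widest spread.

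From pre-B to immature B, 26 of the 50 members (52%) rose and 0 fell by limma, against 18% of all tested probe sets called, 9.72% higher and 8.32% lower. In 24 members (48%) all 6 immature B arrays were above all 8 pre-B arrays, which held for 4.38% of all tested, and in 0 members were they all below (4.22% of all tested). The median difference was 0.95 over the members and -0.05 over all tested. The 3 kappa constant probe sets, 15 of 21 kappa variable probe sets and the 3 lambda probe sets rose.

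Igkv9-120 on probe set 1460423_x_at read 6.78, 7.03, 7.19, 7.36, 7.46, 7.62, 7.81 and 7.81 on the pre-B arrays. On the immature B arrays it read 10.33, 10.40, 10.55, 11.37, 11.61 and 11.65. The groups lay far apart, with a difference of 3.60 (SE 0.30, 12.2-fold, adjusted p = 1.14e-08 by limma), the largest of the members in this comparison. The suffix of this probe set says that it can also hybridise other sequences. The other Igkv9-120 probe sets did not show a rise of this size. The pre-B and immature B means were 6.54 and 8.13 on 1452536_s_at, and 2.81 and 2.78 on 1427750_at, which was near background.

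Igkv6-14 on 1427860_at rose by 3.52 (SE 0.35, 11.5-fold, adjusted p = 8.96e-08 by limma), from 7.35 to 8.49 on pre-B arrays to 10.85 to 11.68 on immature B arrays. Probe set 1451965_at, annotated to several segments of which Igkv6-14 is the first, rose by 3.38. Igkv15-103 rose by 3.18, Igkv14-111 by 3.17, Igkv6-15 by 3.09 and Igkv6-20 by 3.06, each with all 6 immature B arrays above every pre-B array. These are variable segments of the kappa locus, each of which can supply the antigen-binding part of a kappa chain. The other called kappa variable probe sets rose by 0.26 to 2.67, and the smallest of these, 1427799_x_at, was near the background of the arrays, a log2 level of 3.77.

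The kappa constant probe sets rose by smaller amounts: 1452417_x_at by 1.03 (SE 0.10, adjusted p = 6.12e-08 by limma), 1427660_x_at by 0.88 and 1427455_x_at by 0.53. Igkv8-30 on 1452463_x_at, a probe set that can also hybridise other sequences as its suffix says, rose by 0.78. The immature B means of these kappa probe sets were 13.24 to 13.56, near the highest value on any array, 14.06. How far signals near the top of the scale can still rise was not tested.

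The lambda chain showed a step between pro-B and pre-B on 1 of its 3 probe sets. Iglv1, the main lambda variable segment of the mouse, read 5.52, 5.66, 6.11, 6.28, 6.48 and 6.64 on the pro-B arrays with probe set 1427292_at. It read 8.43 at the lowest, 9.46 at the median and 9.66 at the highest on the pre-B arrays, and 11.19, 11.51 and 11.90 on the immature B arrays. The 3 stages did not overlap: Iglv1 rose by 3.16 from pro-B to pre-B (SE 0.23, 8.94-fold, adjusted p = 7.02e-10 by limma) and by 2.23 from pre-B to immature B (adjusted p = 1.27e-07 by limma). The mature B arrays read 10.11, 10.61 and 11.56, which overlapped the immature B arrays.

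The other lambda probe sets did not show the first step. On 1424931_s_at, annotated to Iglc1 and Iglv1, the pro-B arrays read 10.06, 10.30, 10.31, 12.12, 12.15 and 12.48, and the pre-B arrays 11.17 to 12.34 with a median of 11.97. The pro-B arrays formed a low and a high set of 3 on either side of most pre-B arrays, and the difference of 0.59 was not called (adjusted p = 0.141 by limma). The 1430523_s_at probe set of Iglv1 had the same split and a difference of 0.53 (adjusted p = 0.194 by limma). From pre-B to immature B these probe sets rose by 1.31 (SE 0.31, adjusted p = 0.00357 by limma) and 1.39 (adjusted p = 0.00249 by limma). The Iglc1 and Iglv1 rise on 1424931_s_at was not called with alike arrays averaged or within either run.

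The 3 pro-B arrays that were high for lambda were arrays 2, 4 and 6, and the same arrays were high for many kappa segments. Igkv6-15 on 1427859_at read 11.33, 11.13 and 11.16 on these arrays and 9.55, 9.39 and 9.29 on arrays 1, 3 and 5. Arrays 2, 4 and 6 were above arrays 1, 3 and 5 in 25 of the 50 members, 14 of them kappa variable, and in 14.6% of all tested probe sets. In 7 members the gap was over 1 log2, which 0.8% of all tested showed. These arrays were chosen after their values were seen, so the counts are a description with no test. The same 3 arrays were alike over other probe sets and were averaged to 1 value in the alternative above. Their mean T and NK level was 9.28 to 9.48, against 7.95 to 8.12 on arrays 1, 3 and 5, their plasmacytoid dendritic level 10.90 to 11.14 against 9.69 to 10.09, their plasma cell level 9.76 to 9.89 against 9.30 to 9.40, and their B-lineage level 8.44 to 8.78 against 9.03 to 9.49. The part of these markers in the members' values was not tested.

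From pro-B to pre-B, 24 of the 50 members (48%) fell and 4 (8%) rose by limma, against 30.3% of all tested probe sets called, 14.1% lower and 16.3% higher. In 15 members every pre-B array was below every pro-B array, which held for 6.17% of all tested, and in 2 members every pre-B array was above (3.61% of all tested). The median difference was -0.34 over the members and 0.10 over all tested. Those that fell were 10 of 21 kappa variable, 6 of 11 Ighm, 2 of 4 Ighg3, 2 of 3 kappa constant and 3 of 3 Igha probe sets, and 1 probe set annotated to Ighv14-2, Ighg3 and Ighm together.

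**Figure D2:**
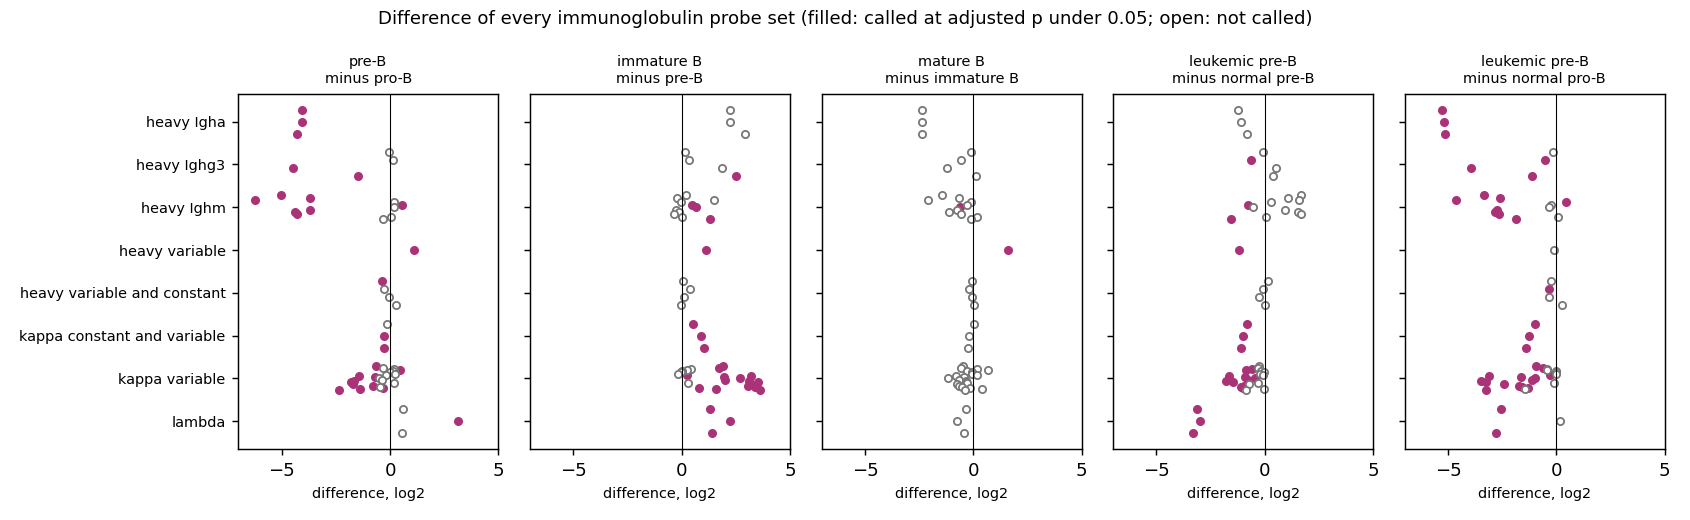
Difference of group means in log2 units for every member in 5 comparisons, by class of segment. Filled points passed the test at an adjusted p under 0.05. Light chain points lie mostly above 0 from pre-B to immature B, apart from 2 kappa variable probe sets near background, and mostly below 0 in leukemic against pre-B arrays.

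The kappa variable segments that fell had their lower level at the pre-B gate, between higher levels at the pro-B and immature B gates. Igkv9-120 on 1460423_x_at read 8.81, 8.95, 9.10, 10.41, 10.58 and 10.60 on the pro-B arrays, all above the highest pre-B value of 7.81. It fell by 2.36 (SE 0.30, adjusted p = 2.74e-06 by limma) to the pre-B arrays. Igkv14-111 fell by 1.70 and Igkv9-120 on 1452536_s_at by 1.39, again with no overlap, while Igkv6-14 fell by 1.79 and Igkv6-15 by 1.68 with some overlap. The single kappa variable probe set that rose was 1427577_x_at, by 0.44 (adjusted p = 0.0412 by limma).

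Markers of other cell types were also higher on the pro-B arrays, and their part in these differences was not tested. Of all tested probe sets, 14.1% fell and 16.3% rose from pro-B to pre-B. The mean log2 level of 7 T and NK cell genes was 7.95 to 9.48 on pro-B and 5.01 to 5.72 on pre-B arrays, and 7 of 7 fell. The 5 plasmacytoid dendritic genes read 9.69 to 11.14 and 6.22 to 8.39 on average, with 5 of 5 falling, and 7 of 8 myeloid genes fell, from 10.86 to 11.83 down to 8.76 to 11.11. The 6 plasma cell genes (Jchain, Xbp1, Prdm1, Sdc1, Tnfrsf17 and Irf4) read 9.30 to 9.89 and 8.04 to 9.003 on average, with 3 falling and 1 rising. In sorted populations, fewer cells of a type and less RNA per cell cannot be told apart. Between pre-B and immature B, 4 of 8 myeloid, 2 of 4 erythroid and 2 of 6 plasma cell genes rose. At this step 2 plasma cell genes and 4 T and NK genes fell, and no plasmacytoid dendritic gene was called. Over all tested probe sets 9.72% rose and 8.32% fell.

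The heavy chain did not move as 1 gene. On probe set 1427351_s_at of Ighm, the constant region of IgM, the pro-B arrays read 12.48 to 12.84 with a median of 12.61. The pre-B arrays read 12.66 to 12.97 with a median of 12.77, and the immature B arrays 13.23 to 13.60 with a median of 13.47. Ighm on this probe set rose by 0.64 from pre-B to immature B (SE 0.07, adjusted p = 3.31e-07 by limma), with no overlap, and fell by 0.60 to the mature B arrays (SE 0.09, adjusted p = 0.000248 by limma), which read 12.69, 12.81 and 12.999. The 1427329_a_at probe set of Ighm rose at both earlier steps, by 0.55 from pro-B to pre-B (adjusted p = 7.39e-05 by limma) and by 0.49 to immature B.

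A different set of Ighm probe sets had its highest normal values at the pro-B gate. On 1425247_a_at the pro-B arrays read 10.10, 10.42, 10.49, 11.05, 11.14 and 11.35. The pre-B arrays 1, 6 and 7 read 9.13, 8.53 and 8.41, and the other 5 pre-B arrays read 3.20, 3.78, 3.93, 4.13 and 4.87. The pre-B group was thus split into high and low arrays with a gap of over 3 log2 between them, and all of it was below the pro-B arrays. The immature B arrays read 3.77 to 6.83 and the mature B arrays 3.96, 4.03 and 5.46. The difference from pro-B to pre-B was -5.01 (SE 0.82, adjusted p = 5.92e-05 by limma).

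The Ighm probe sets 1425324_x_at, 1427756_x_at, 1427869_at and 1427870_x_at showed the same arrays high and fell by 3.68 to 4.39 from pro-B to pre-B. Arrays 1, 6 and 7 were more than 1 log2 above all other pre-B arrays in 5 probe sets of the 22626 tested (0.0221%), and these 5 were the Ighm probe sets named here. The 3 arrays were chosen from the values of these same probe sets, so the count is a description with no test. The probe set 1425385_a_at of Ighm read 10.92 to 11.73 on pro-B arrays and 3.60 to 4.36 on 6 pre-B arrays, with 8.12 on array 8 and 8.45 on array 3. Its difference was -6.23 (SE 0.84, 75.3-fold, adjusted p = 5.14e-06 by limma), the largest of the members. It was high on immature B arrays 2, 3 and 6 (8.80, 8.89 and 8.41) and 3.90, 4.69 and 4.79 on the others. These 3 immature B arrays were also alike over other probe sets, with mean plasma cell levels of 9.94 to 10.23 against 8.15 to 8.90 on the others, erythroid levels of 5.97 to 6.10 against 4.46 to 5.07, and Igll1 at 8.73 to 9.19 against 5.70 to 6.25. The part of these markers in the Ighm values was not tested. A range of at least 4 log2 over the 8 pre-B arrays occurred in 9 members and in 0.301% of all tested probe sets. The files do not give which part of Ighm each probe set hybridises, so these values do not tell isoforms or variable segments apart.

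**Figure D3:**
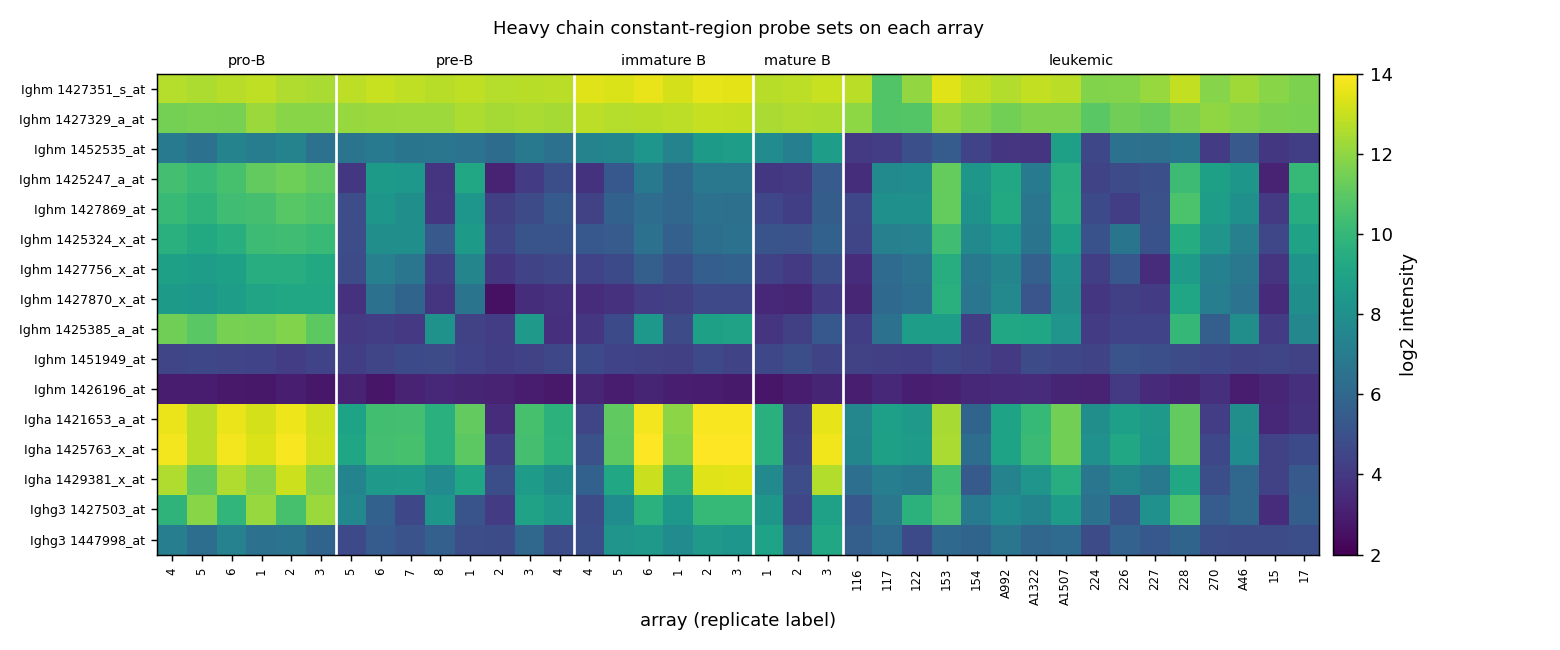
Log2 intensity of 16 heavy chain constant probe sets (one per line) on all 39 arrays (one per column), by group. The 5 Ighm probe sets with high pre-B arrays 1, 6 and 7, and the Igha and Ighg3 probe sets that differ from array to array within a group, can be read along the lines.

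Igha and Ighg3 encode the constant regions of IgA and IgG3, which B cells use after class switching. Igha on 1421653_a_at read 12.78, 13.15, 13.21, 13.66, 13.67 and 13.69 on the pro-B arrays. The pre-B arrays read 3.52 on array 2 and 8.98, 9.63, 9.71, 10.39, 10.41, 10.53 and 11.12 on the others. Every pre-B array was below every pro-B array, with a difference of -4.07 (SE 1.37, adjusted p = 0.0288 by limma). Igha fell by 4.07 (adjusted p = 0.0234 by limma) on 1425763_x_at and by 4.31 (SE 1.08, adjusted p = 0.00467 by limma) on 1429381_x_at.

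On the immature B arrays Igha on 1421653_a_at read 4.52 on array 4, 11.06, 11.91, 13.80, 13.88 and 13.90, and on the mature B arrays 4.28, 9.60 and 13.57. These groups covered nearly the whole range of the probe set, and the rise from pre-B of 2.23 was not called (adjusted p = 0.299 by limma), nor were those of the other Igha probe sets (2.25 and 2.92, adjusted p = 0.271 and 0.0655 by limma). Ighg3 on 1427503_at fell by 4.46 from pro-B to pre-B (SE 0.89, adjusted p = 0.000571 by limma), from 9.81 to 12.21 down to 4.10 to 8.90. Ighg3 on 1447998_at fell by 1.48 (adjusted p = 0.0404 by limma) and then rose by 2.53 to immature B (adjusted p = 0.00126 by limma), with array 4 (4.86) the only immature B array inside the pre-B range. This Ighg3 fall was not called within run 1, within run 2 or with alike arrays averaged (adjusted p = 0.123, 0.248 and 0.487 by limma), nor was the rise within run 1 or with alike arrays averaged (adjusted p = 0.127 and 0.452 by limma).

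Jchain, which joins IgA and IgM into polymers and is made by antibody-secreting cells, moved with Igha from array to array in the normal groups. It read 5.23 on pre-B array 2 and 8.57 to 9.89 on the other pre-B arrays, 5.93 on immature B array 4 and 11.32 to 13.36 on the other immature B arrays, and 9.39, 5.27 and 12.49 on mature B arrays 1, 2 and 3. The pro-B arrays read 11.67 to 12.88, and Jchain fell by 3.51 from pro-B to pre-B (adjusted p = 0.0127 by limma). Some leukemic arrays differed: array 17 read 8.59 for Jchain and 3.76 for Igha on 1421653_a_at, while array 153 was the highest leukemic array in both. With Jchain as a covariate, an alternative chosen after seeing the data, the difference from pro-B to pre-B was 0.54 for Igha on 1421653_a_at (adjusted p = 0.376 by limma) and 18 members were called in place of 28.

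**Figure D4:**
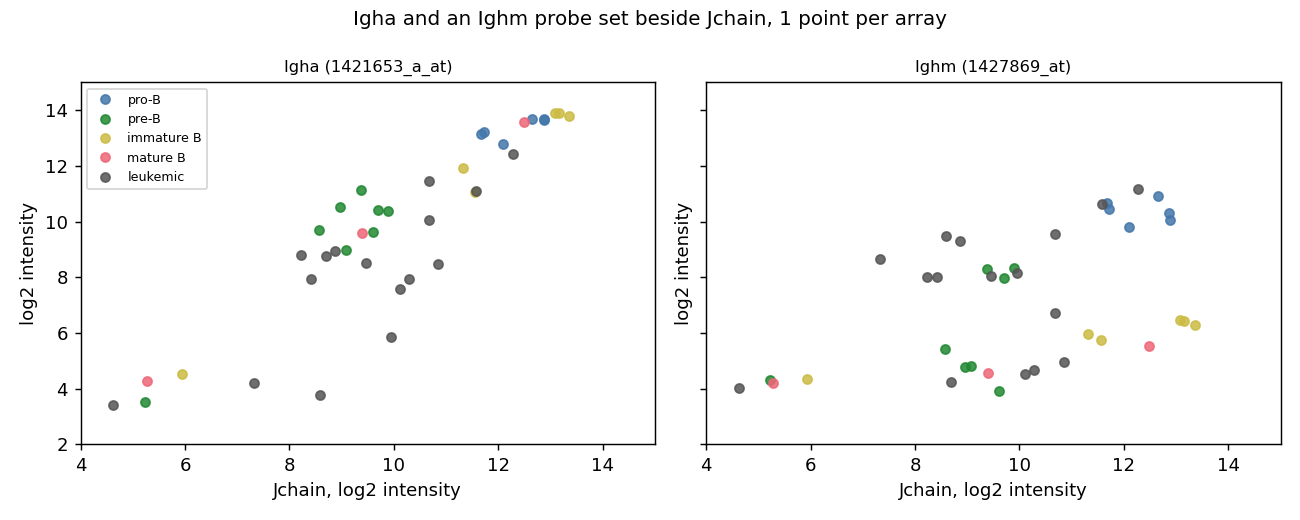
Log2 intensity of Igha (1421653_a_at) and of Ighm (1427869_at) on the y axes against that of Jchain on the x axes, 1 point per array, coloured by group. Arrays low in Jchain, such as pre-B array 2 and immature B array 4, are low in Igha.

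The counts from pro-B to pre-B depended on how the normal arrays were used. With alike arrays averaged, 12 members were called (5.42% of all tested), and within run 1 and run 2 the counts were 17 and 18. The run counts do not tell a change in the members from a change in power. All 3 Igha probe sets lost their call within run 1 (adjusted p = 0.05 to 0.142 by limma), within run 2 (0.057 to 0.122) and with alike arrays averaged (0.306 to 0.421), at differences of -3.52 to -4.63. Igha on 1421653_a_at also lost it without pro-B array 6, pro-B array 2 or pre-B array 2 (-3.25, adjusted p = 0.051 by limma, without the last). Ighg3 on 1427503_at lost its call with alike arrays averaged (-4.41, adjusted p = 0.162 by limma), and the small falls of the kappa constant probe sets lost theirs under all 3 settings. The 6 Ighm falls, the rises of Iglv1 on 1427292_at and of Ighv14-2 and the fall of Igkv9-120 on 1460423_x_at were called under each of them. The rise from pre-B to immature B still gave 21 called members with alike arrays averaged (6.01% of all tested).

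Ighv14-2 was the heavy variable segment with a probe set of its own above background. On 1455530_at the pro-B arrays read 8.55 to 9.31 with a median of 8.72, the pre-B arrays 9.52 to 10.28 with a median of 9.91, and the immature B arrays 10.71 to 11.40 with a median of 11.07. The mature B arrays read 12.54, 12.62 and 12.74. Ighv14-2 rose at each step with no overlap between neighbouring stages, by 1.09 (SE 0.13, adjusted p = 7.87e-07), 1.14 (adjusted p = 5.67e-07) and 1.60 (SE 0.17, adjusted p = 4.49e-06), all by limma.

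From immature to mature B, Ighv14-2 and Ighm on 1427351_s_at were the only 2 members called (4% of the members), against 4.78% of all tested probe sets, 1.69% higher and 3.08% lower, so the members were called about as often as other probe sets. In 6 members all 3 mature B arrays were below all immature B arrays (12%, against 6.26% of all tested), and in 1 they were above (3.9% of all tested). The mature group had 3 arrays, all of run 2, and 12 members had an unadjusted p under 0.05. The kappa variable differences at this step were between -1.17 and 0.70.

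Genes that join the segments were counted from a list. Of all tested probe sets, 16.3% rose and 14.1% fell from pro-B to pre-B. From pre-B to immature B, 9.72% rose and 8.32% fell. Of 9 measured genes of V(D)J recombination and joining, 4 rose and 1 fell from pro-B to pre-B: Rag1 and Rag2, which cut the segments, rose by 1.71 and 1.13, and Dntt, which adds bases at the joins, fell by 1.97. From pre-B to immature B 5 fell, among them Rag2 by 3.94, Dntt by 3.42 and Rag1 by 3.40, and 0 rose. In a list of Igll1, Vpreb1, Vpreb3, Cd79a and Cd79b, Igll1 fell by 2.52 and Vpreb1, the other chain of the surrogate light chain, by 2.33 at this step. Cd79b rose by 0.42. Of 14 transcription factors of the immunoglobulin loci, 10 rose and 1 fell from pro-B to pre-B, and 6 rose and 2 fell from pre-B to immature B, with Pou2f2 (Oct-2) up by 1.71 and Pax5 up by 1.15.

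Leukemic arrays were compared with normal cells of the same gate, the pre-B cells, to ask how the lymphoblasts differ from their normal counterpart. Of the 50 members, 21 (42%) fell and 0 rose by limma, against 15.6% of all tested probe sets called, 7.32% lower and 8.23% higher. In 15 members (30%) at least 75% of the leukemic arrays were below every pre-B array, which held for 4.95% of all tested, and in 0 members were as many above (5.61% of all tested). The median difference was -0.57 over the members and -0.003 over all tested. The 3 lambda, 3 of 3 kappa constant and 11 of 21 kappa variable probe sets fell, with 2 of 11 Ighm and 1 of 4 Ighg3 probe sets and Ighv14-2.

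The lambda probe sets fell most. Iglv1 on 1430523_s_at read 10.27 to 11.28 on the pre-B arrays with a median of 10.96, and 4.85 (array 15) to 10.30 (array 153) on the leukemic arrays with a median of 7.35. Of the 16 leukemic arrays, 15 were below every pre-B array and array 153 was just inside their range. The difference was -3.32 (SE 0.50, 9.96-fold, adjusted p = 2.88e-05 by limma). The probe set of Iglc1 and Iglv1 fell by 3.13 (SE 0.62, adjusted p = 0.000728 by limma), from 11.17 to 12.34 down to 4.51 to 11.80, with 14 of 16 arrays below every pre-B array. Iglv1 on 1427292_at fell by 3.002 (SE 0.65, adjusted p = 0.00188 by limma), with a leukemic range from 3.25 on array 15 to 10.68 on array A1507.

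The kappa falls were smaller, but the pre-B means of the kappa constant probe sets were high on the scale (12.21 to 13.03). What this does to the size of a fall was not tested. The Igkc probe set 1452417_x_at read 9.84 (array 117) to 12.28 (array 153) with a median of 11.001, and 13 of 16 leukemic arrays were below the lowest pre-B value of 11.90. The difference was -1.11 (SE 0.27, adjusted p = 0.00474 by limma), and the other kappa constant probe sets fell by 0.99 and 0.81. Igkv6-15 fell by 1.79 (SE 0.40, adjusted p = 0.00252 by limma), from 8.02 to 9.34 on pre-B arrays down to 4.40 to 8.83, with 13 of 16 arrays below every pre-B array. Igkv15-103 fell by 1.68, Igkv6-14 by 1.46 and 1451965_at by 1.10, whereas the 2 Igkv9-120 probe sets above background differed by -0.88 and -0.05 and were not called.

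In the heavy chain Ighv14-2 fell by 1.19 (SE 0.25, adjusted p = 0.0015 by limma). It read 7.86 to 9.35 on 15 leukemic arrays, all below the lowest pre-B value of 9.52, and 10.78 on array 117, above the highest of 10.28. Ighm fell by 0.79 on 1427329_a_at (adjusted p = 0.000398 by limma), with 15 of 16 arrays below every pre-B array, and by 1.55 on 1452535_at (adjusted p = 0.0244 by limma), where array A1507 read 8.81 and the others 3.80 to 6.66. The 5 Ighm probe sets that were split among the pre-B arrays had leukemic differences of 0.92 to 1.69, none called (lowest adjusted p = 0.149 by limma), and on 1425247_a_at the leukemic arrays covered 3.20 to 11.16 with a median of 8.10. Igha was not called on any of its 3 probe sets (-1.22 to -0.84). The called Ighg3 probe set, 1426199_x_at, was near background in both groups.

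The count of falls changed with the arrays used. Within run 1, which holds 4 pre-B and 12 leukemic arrays, 4 members were called, and within run 2, which holds 4 of each, 22 were. Whether the members or the power of the fit changed between the runs is not told by these counts. With alike arrays averaged 2 members were called (4.12% of all tested): Iglv1 on 1430523_s_at, at -3.37 (adjusted p = 0.0173 by limma), and Ighg3 on 1426199_x_at. Differences that lost their call stayed of similar size: the Igkc probe set 1452417_x_at was at -0.97 within run 1 (adjusted p = 0.126 by limma) and -1.17 with alike arrays averaged (adjusted p = 0.165 by limma), and -1.59 within run 2 (adjusted p = 0.0091 by limma). Without arrays 116 and 122, an alternative chosen after seeing the data, 17 members were called.

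Other genes of the pathway were counted from the lists, beside 7.32% of all tested lower and 8.23% higher. Of the 9 recombination genes 4 fell, Dntt by 2.84, Rag1 by 1.60, Xrcc6 (Ku70, which holds broken ends) by 0.94 and Hmgb2 by 0.34, 0 rose and 5 were not called. Among the 14 transcription factors 4 fell, Spib by 1.36, Irf4 by 1.10, Tcf3 by 0.97 and Rel by 0.77, 0 rose and 10 were not called. In the list of Igll1, Vpreb1, Vpreb3, Cd79a and Cd79b, Vpreb1 rose by 1.04, Cd79b fell by 0.79 and 3 were not called. Of the genes of other cell types, 5 of 8 myeloid, 2 of 7 T and NK, 2 of 5 plasmacytoid dendritic, 1 of 4 erythroid and 2 of 6 plasma cell genes fell, and 2 of 6 B-lineage genes fell. The mean myeloid level was 8.76 to 11.11 on pre-B and 5.59 to 10.05 on leukemic arrays, and its part in the differences was not tested.

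Against the pro-B arrays, 33 members (66%) fell and 1 (2%) rose, against 14.5% of all tested probe sets called, 7.14% lower and 7.33% higher. The member that rose was the Ighm probe set 1426196_at, near background in both groups. In 32 members (64%) at least 75% of leukemic arrays were below every pro-B array, which held for 7.4% of all tested, and in 1 (the same 1426196_at) as many were above (9.38% of all tested). Igha fell most, by 5.29 (SE 1.02, adjusted p = 0.00113 by limma) on 1421653_a_at, from at least 12.78 on pro-B arrays to between 3.39 and 12.41, with differences of -5.18 and -5.15 on the others and 16 of 16 leukemic arrays below every pro-B array on each. Ighm on 1425385_a_at fell by 4.64, Igkv6-15 by 3.47, Igkv6-14 by 3.25 and Igkv9-120 on 1460423_x_at by 3.23. Markers of other cell types were lower in the same comparison: 7 of 8 myeloid genes (median difference -3.42), 5 of 7 T and NK genes (-2.43), 5 of 5 plasmacytoid dendritic genes (-4.47) and 3 of 6 plasma cell genes (-1.13) fell. Their part in the members' falls was not tested.

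Iglv1 on 1427292_at, which separated pre-B from pro-B arrays, read on either side of the pro-B arrays: 6 leukemic arrays were above all of them and 7 below, with a difference of 0.16 (adjusted p = 0.904 by limma). This comparison shares the leukemic arrays with that against pre-B cells, so its values do not support the other's. With alike arrays averaged, 3 members were called (1.32% of all tested), Igha on 1429381_x_at, Igkv6-15 and Igkv6-14, and within run 1 there were 8 and within run 2 there were 23. With Jchain as a covariate 7 were called. The counts by run and with Jchain do not separate a change in the members from a change in power.

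Single segments raised on single leukemic arrays were looked for next, since a clone that descends from 1 joined cell keeps its join. The kappa or lambda chain is joined at the pre-B stage, so cells of a leukemic clone need not share a light chain join. A variable-segment probe set was counted when a leukemic array exceeded the highest of the 23 normal arrays by at least 1 log2. This occurred on 1 of 16 leukemic arrays. It was 1 of 512 pairs of a variable-segment probe set and a leukemic array (0.195%), against 0.805% of such pairs over all tested probe sets, and 1 of 32 variable-segment probe sets (3.12%), against 6.82% of all tested with the excess on at least 1 array. The excess was thus no more frequent among the variable segments than among all probe sets. The probe sets covered 17 of 162 kappa and 2 of 183 heavy variable segments, so a raised segment without a probe set would be missed. The normal reference also held immature and mature B arrays, on which many of these probe sets were high. The counts therefore do not show whether the leukemic arrays hold clonal joins. The array was 153 and the segment Igkv9-120 on 1452536_s_at, which read 10.04 against a highest normal value of 8.70 (a mature B array) and a leukemic median of 6.22. The excess was 1.34, and with a margin of 2 log2 no array was counted.

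Igkv9-120 has 3 probe sets, and they differed on array 153. On 1460423_x_at array 153 read 9.47, the highest leukemic value, but below every immature B array, and on 1427750_at it read 2.85, near background like all arrays. Array 116 read 8.75 on 1452536_s_at, above every pre-B array, and 7.29 on 1460423_x_at, inside the pre-B range. Without probe sets that can hybridise several transcripts (those with suffixes _x_at, _s_at or _a_at) no array was counted.

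With the 8 pre-B arrays as the reference 3 leukemic arrays were counted. The excesses were 6 of 512 pairs (1.17%), against 2.59% of pairs over all tested, and 5 of 32 variable-segment probe sets (15.6%), against 16.3% of all tested, again no more than among all probe sets. Array 116 exceeded them on Igkv9-120 by 1.83 and array 153 on 4 variable-segment probe sets by up to 3.12. Array A1507 exceeded them on Iglv1, reading 10.68 on 1427292_at against a highest pre-B value of 9.66, an excess of 1.02. A1507 was also the highest leukemic array on the probe set of Iglc1 and Iglv1, at 11.80, which lay inside the pre-B range. On 1430523_s_at, also Iglv1, it read 9.0, below every pre-B array, so the lambda probe sets did not rank this array alike.

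Smaller single-array highs were also present. Igkv19-93 on 1427855_at was highest on array 226, at 10.70 against a leukemic median of 8.68 and pre-B values up to 10.54. Igkv15-103 read 8.86 on array 153, 8.52 on A992, 8.16 on A1322 and 7.95 on A1507 against a median of 5.25, so that 4 arrays formed the top of its range. These arrays were chosen after their values were seen.

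**Figure D5:**
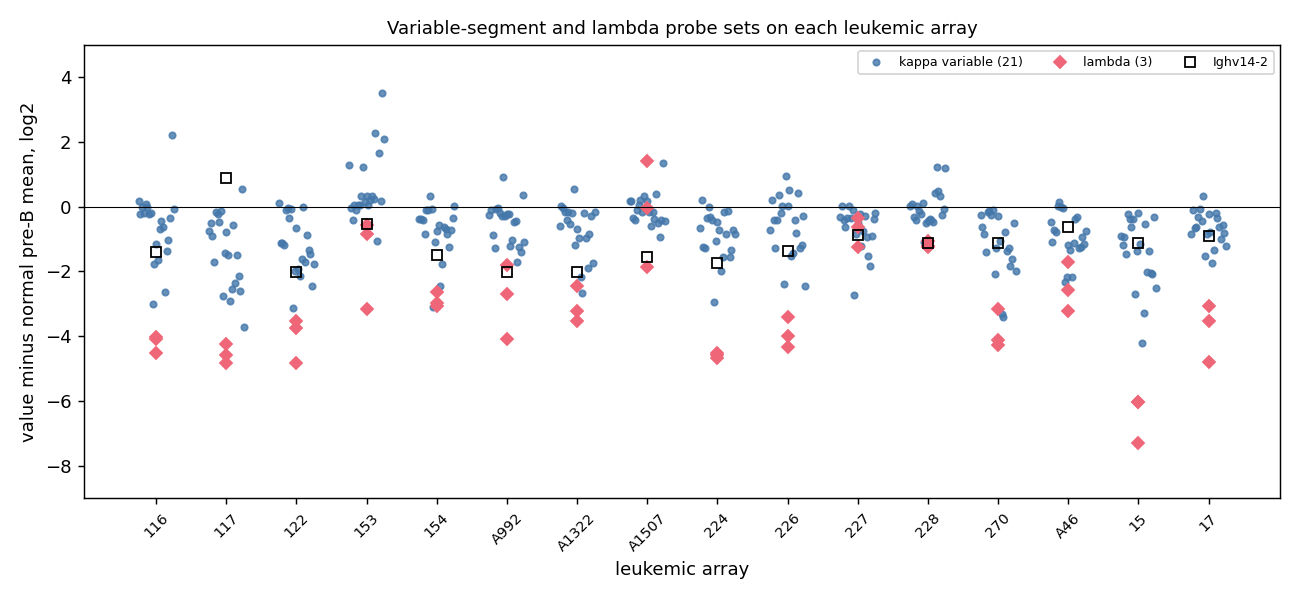
Difference in log2 units of each leukemic array from the mean of the 8 pre-B arrays, for the 21 kappa variable probe sets, the 3 lambda probe sets and Ighv14-2. Array 153 has most kappa variable points above 0, and lambda points lie below 0 on nearly all arrays.

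Leukemic arrays differed more among themselves in the members than in other genes. The median SD over the 16 arrays was 0.72 for the members and 0.42 for all tested probe sets, and 20 members (40%) had an SD of at least 1, against 8.38% of all tested. Array 153 was at least 2 log2 above the leukemic median in 17 members, array 228 in 13 and A1507 in 7, against 1.34%, 0.685% and 0.614% of all tested probe sets on those arrays. The other 13 arrays had 0 to 3 such members.

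On array 153 the highs spanned several classes: Ighm on 1427869_at at 11.17 (leukemic median 8.03), Igha on 1421653_a_at at 12.41 (8.49), Ighg3 on 1427503_at at 10.59 (6.84), and Igkv14-111 at 10.25 (7.12). Array 228 read 10.62, 11.11, 10.58 and 9.17 on these 4 probe sets. Jchain was highest on the same arrays, at 12.28 on array 153 and 11.58 on array 228 against a leukemic median of 9.70. Their plasma cell levels, 9.41 and 9.44, were the highest of the leukemic arrays (median 8.34). Jchain is itself 1 of the 6 genes in this level, so it is not a separate observation. The T and NK level was 7.19 on array 153, 6.59 on array 228 and 6.93 on A1507 (median 5.26). The plasmacytoid dendritic level was 8.76 on array 153 and 6.59 on array 228 (median 6.64). The part of these markers in the members' values was not tested. The lowest array in Igha and Jchain was 15, at 3.39 on 1421653_a_at and 4.63. The median kappa variable difference from the pre-B mean was 0.20 on array 153, with 4 of 21 probe sets below that mean, and -1.44 on array 117, and arrays 15 and 270 had 21 of 21 below it.

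Between the 5 leukemic arrays after pIpC and the 11 without it, 0 of 50 members were called by limma, against 0.00442% of all tested probe sets, and 2 members had an unadjusted p under 0.05. The arrays with and without pIpC overlapped in all 50 members (0.0575% of all tested lay wholly higher and 0.0177% wholly lower). The members with an unadjusted p under 0.05 were Iglv1 on 1427292_at, 2.12 higher after pIpC, and Igkv15-103, 1.66 higher, both with an adjusted p of 0.91. Of the 5 pIpC arrays, A1507 read 10.68 on Iglv1, above all 11 arrays without pIpC.

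A total of 9 members had a group mean below the background limit in all 5 groups, 18% of the members against 15.2% of all tested probe sets. They were 1427748_at (Igkv1-117), 1427750_at (Igkv9-120), 1427753_at (Igkv1-135) and 1427799_x_at of the kappa variable class, 1426196_at (Ighm), 1426198_at and 1426199_x_at (Ighg3), and 1427851_x_at and 1452538_at, which combine heavy variable and constant symbols. Their level is not told apart from background, and calls on them are of little weight. The remaining 41 members were above the limit in at least 1 group. The other 2 probe sets with heavy variable and constant symbols, 1427758_x_at and 1451947_at, stayed within 0.4 log2 of the limit on average in every group, and the second was not called in any comparison.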

How the data were processed

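The deposited values are linear intensities per probe set from Affymetrix arrays of 39 samples. RMA is the tool that the submitters' processing notes name for these intensities, without a version. Per the labels' protocols, RNA was isolated with Trizol, and 20 ng was amplified and biotin-labelled with the NuGEN Ovation kit. The deposited intensities were log2-transformed with no offset, and 64 control probe sets were left out, which leaves 22626. No array was normalized again. A probe set's brightness depends on its sequence, so levels were compared between arrays and not between probe sets, and the number of arrays limits the precision.

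Tests were limma 3.58.1 in R 4.3.3 (lmFit, eBayes with trend), with Benjamini-Hochberg adjustment over all 22626 probe sets and calls at 0.05. The 23 normal arrays shared 1 fit, and the leukemic arrays were fitted with the pre-B arrays (24 in all), the pro-B arrays (22) or alone (16). The steps were tested on simulated data. The background limit is the median over arrays of the 20th percentile of all probe sets.

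The members and gene lists were chosen with earlier results of these data known. Named were all members with a constant-region symbol, up to 6 called variable-segment probe sets per direction whose groups do not overlap (leukemic comparisons: at least 75% of leukemic arrays beyond every normal array), and single-array excesses of at least 1 log2. Other members given with values were chosen after their values were seen. Alternatives left out single arrays, took each run alone or as a covariate, fitted all 39 arrays, added an offset of 16, left out the 40% dimmest probe sets, left out probe sets that can hybridise several transcripts, averaged alike arrays, or added Jchain as a covariate. The last 2, and leaving out arrays 116 and 122 together, were chosen after seeing the data. No label says that replicate numbers pair the arrays. Same-numbered arrays of different groups had deviations that correlated at -0.74 to 0.63, which does not settle whether they are paired. Genome coordinates are not used here.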

Additional observations from a re-analysis of the deposited data

Results flagged for a closer look

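In 33 named probe sets, the lowest and the highest array of each normal group of 6 or 8 and the neighbouring value were compared with Dixon's 95% limit. Of 99 groups looked at, 9 had 1 array beyond the limit. A chance share of about 5% holds for independent groups only. These groups share arrays and often genes, so the count is not compared with it. Of the 9 flagged, 5 were immature B array 4 low, and 3 were pre-B array 2.

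Igha was low on both arrays. On 1421653_a_at, pre-B array 2 read 3.52 with the next array at 8.98, and immature B array 4 read 4.52 with the next at 11.06. On 1425763_x_at the same arrays read 4.24 (next 9.12) and 4.99 (next 11.04), and on 1429381_x_at pre-B array 2 read 4.86 (next 7.43). Jchain was also lowest on these arrays in their groups, at 5.23 and 5.93.

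Immature B array 4 was further low on Ighg3 1447998_at at 4.86 (next 7.81), Ighm 1427869_at at 4.35 (next 5.75) and Igkv14-111 1451951_at at 10.58 (next 11.10). Immature B array 6 was high on Ighg3 1426199_x_at at 4.37 (next 3.65), which is near background in every group mean.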

How the results depend on the processing

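For single named members, the other settings left direction and call as they were in 1908 cases and ended a call in 113, and those added after seeing the data did so in 113 and 66. With the latter, 3 differences from pro-B to pre-B also turned sign, all with Jchain as a covariate: Igha 1421653_a_at (0.54), Igha 1425763_x_at (0.37) and Ighg3 1447998_at (0.0933). The cause was not tested.

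The counts of called members moved over 1.5 times as follows. From pro-B to pre-B (28) they were 17 within run 1, 18 within run 2, 12 with alike arrays averaged and 18 with Jchain as a covariate. From immature to mature B (2) they were 1 with all 39 arrays in 1 fit and 4 with run as a covariate. For leukemic against pre-B (21) they were 4 within run 1 and 2 with alike arrays averaged, and against pro-B (34) they were 8, 3, and 7 with Jchain as a covariate. Fits with fewer arrays can have less power. For leukemic against pre-B, however, 12 of 12 named calls were kept within run 2, with 4 arrays of each group. Within run 1, with 4 pre-B and 12 leukemic arrays, 4 of 12 were kept. Without the share over all tested probe sets beside them, the counts of called members do not separate a change in the members from a change in power. Leaving out probe sets that can hybridise several transcripts leaves 25 members, of which 12, 13, 1, 10 and 14 were called in these comparisons, in the order pre-B against pro-B, immature, mature, leukemic against pre-B and against pro-B. The count of leukemic arrays with a raised segment (1) was 0 with a margin of 2 log2, 3 with pre-B arrays as the reference and 0 without those probe sets.

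Leaving out 1 array at a time gave 22 to 30 calls from pro-B to pre-B, 25 to 31 to immature B, 2 to 4 to mature B (4 without immature B array 4), 16 to 21 and 25 to 35 for the leukemic comparisons, and 0 for pIpC. With the replicate block the counts were 25, 28 and 3 for the 3 normal steps, although no label says that the numbers pair the arrays. Mature B arrays were all in run 2, so no value within run 1 exists for that step.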
